A study of Mus musculus with 3 samples.

Results

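Milk protein genes were examined in 3 mammary tumours of the mouse line NDL(UCD) by total RNA sequencing. The group comprised 9 genes, taken from the deposited gene tables by symbol, of 21881 gene symbols in all: the caseins Csn1s1, Csn1s2a, Csn1s2b, Csn2 and Csn3, and the non-casein milk proteins Lalba, Wap, Glycam1 and Expi. NDL(UCD) is a transplantable tumour line of an ErbB2 mammary cancer model. Cultured cells of this 1 line were injected on both sides into fat pads that still held the host's own mammary gland, in female FVB/NJ mice 6 to 8 weeks old (strain label FVB/N), and tumours were frozen at a width of 5 to 10 mm. The 3 tumours came from 3 mice, per the series' design text, and form a single group, with no normal gland, lactating gland or other tumour beside it, so levels were compared between genes and between tumours only. The tumours are numbered 1 to 3 in accession order.

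Milk proteins are made by the secretory alveolar cells of the mammary gland in late pregnancy and lactation. Prolactin acts through its receptor, the kinase JAK2 and the transcription factors STAT5A and STAT5B to switch on their genes, together with glucocorticoid receptor, C/EBP-beta and ELF5. Caseins are phosphorylated proteins that carry calcium phosphate and assemble into micelles, which kappa-casein (Csn3) covers and stabilises. The whey proteins stay in solution, among them alpha-lactalbumin (Lalba), which turns a Golgi galactosyltransferase into lactose synthase, and the whey acidic protein (Wap).

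STAT5 dimers are known to bind the palindrome TTCNNNGAA, so the 250 bases before the annotated start of the members were searched for it on both strands. Promoters came from RefSeq on GRCm38.p6 and matched 7 of the 9 members (Expi under its present symbol Wfdc18); Csn3 and Csn1s2b were not among them. The 4 sequences below are shown because 3 hold the palindrome, given in capitals, while their transcripts differed widely in level, and the fourth belongs to the most abundant member with an entry. Each runs 5′ to 3′ towards the start of the gene.
Csn1s1 (chr5:87665958-87666207, plus strand): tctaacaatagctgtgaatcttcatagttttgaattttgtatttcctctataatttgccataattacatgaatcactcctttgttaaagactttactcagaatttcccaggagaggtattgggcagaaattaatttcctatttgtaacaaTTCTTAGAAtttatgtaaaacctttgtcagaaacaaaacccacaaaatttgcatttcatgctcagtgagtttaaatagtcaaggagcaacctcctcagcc
Csn2 (chr5:87699426-87699675, minus strand): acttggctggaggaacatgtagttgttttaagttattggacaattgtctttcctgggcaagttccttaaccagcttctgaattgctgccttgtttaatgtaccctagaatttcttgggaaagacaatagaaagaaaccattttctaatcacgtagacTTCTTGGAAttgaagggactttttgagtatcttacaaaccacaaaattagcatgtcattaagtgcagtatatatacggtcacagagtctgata
Glycam1 (chr15:103565082-103565331, minus strand): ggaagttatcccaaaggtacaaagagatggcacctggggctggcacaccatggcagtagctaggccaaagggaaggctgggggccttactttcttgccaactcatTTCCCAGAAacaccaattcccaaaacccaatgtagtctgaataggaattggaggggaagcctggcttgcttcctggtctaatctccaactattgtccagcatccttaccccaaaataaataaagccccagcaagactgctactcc
Expi (chr11:83708754-83709003, plus strand): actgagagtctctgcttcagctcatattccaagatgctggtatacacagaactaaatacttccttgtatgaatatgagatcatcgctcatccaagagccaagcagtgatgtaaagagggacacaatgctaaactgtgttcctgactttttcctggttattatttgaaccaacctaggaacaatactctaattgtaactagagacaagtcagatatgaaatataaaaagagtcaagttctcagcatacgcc

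The palindrome lay at positions -100 to -92 of Csn1s1, -93 to -85 of Csn2 and -145 to -137 of Glycam1, counted from the start of the gene. Of 32851 RefSeq promoters cut to the same length, 7.02% held it. The upstream windows of Csn1s2a, Lalba, Wap and Expi held no such letters. The TATA box motif TATAAA was found at -31 to -26 of Expi and in no other member, against 12.4% of all promoters, and the C/EBP-type motif TTGCNNAA was found in none of the 7, against 9.56%. None of these searched motifs overlapped another in these windows. A match describes letters and not a bound site.

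Values are the authors' deposited FPKM, which divide a gene's fragments by its transcript length and by the size of the library, with an interval per gene that covers counting error only. The libraries corresponded to 11633182, 12349622 and 13329831 implied fragments in tumours 1, 2 and 3. A level was called above or below 1 FPKM, a conventional mark without biological meaning, by limma at 0.05 after Benjamini-Hochberg adjustment over the 18028 genes listed above 0. This called 54.2% of these genes above and 32.5% below. Of the 9 members, 6 were above, Csn1s2b was below, Wap was not separated from 1 FPKM and Glycam1 was listed at 0 in all 3 tumours. Markers of epithelium, the source of a mammary tumour, were present, with all 6 of the list above 1 FPKM and a summed level of 757, 1137 and 1083 FPKM. In such bulk samples fewer secretory cells and less RNA per cell cannot be told apart.

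Transcripts of the milk protein genes spanned more than 3 orders of magnitude on the log10 FPKM axis. Csn3 and Expi stood at the top of the transcriptome, Lalba was next, 3 further caseins lay at moderate levels and the other 3 members were near or below 1 FPKM. Csn3, Expi and Lalba together made up 98.5%, 99.3% and 98.7% of the summed FPKM of the members in tumours 1, 2 and 3. The members held 1.33% ± 0.225 (SD, n = 3) of all FPKM, or 1.97% ± 0.404 with loci under 300 bp left out of the total. Such loci, whose FPKM can rest on few fragments, held 36.7%, 31.7% and 28.6% of FPKM in tumours 1, 2 and 3.

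**Figure D1:**
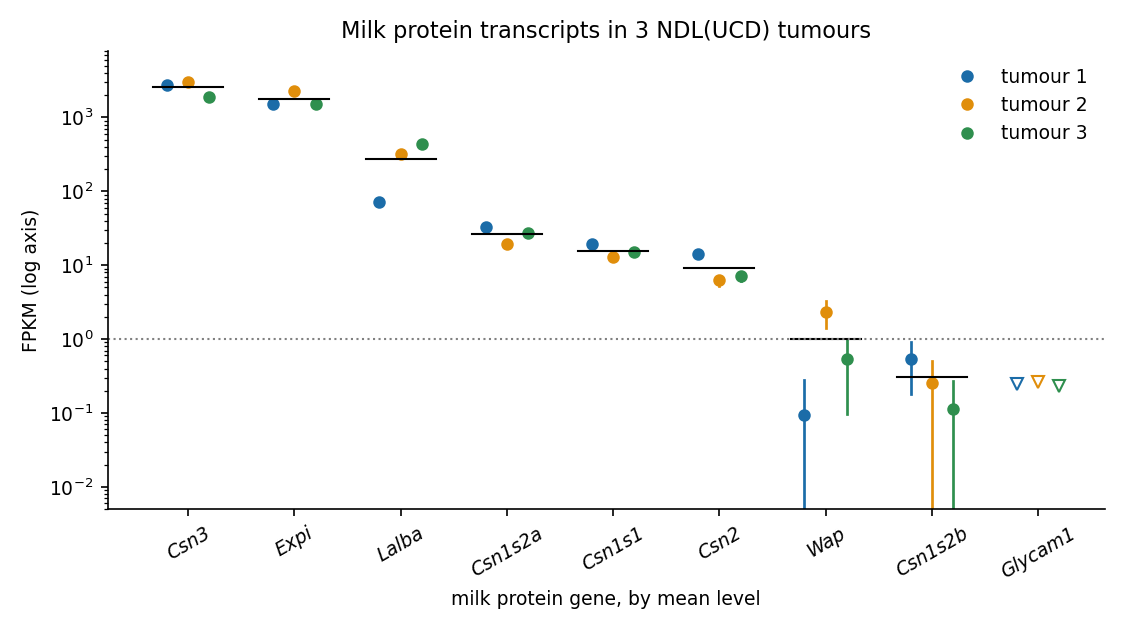
FPKM (log axis) of each milk protein gene in tumours 1 to 3. Points are tumours, vertical lines the deposited intervals (drawn to the lower edge of the axis where they reach 0), black bars the means; open triangles give the limit that 3 fragments would set for Glycam1, listed at 0. Csn3 lies at 2761, 3037 and 1884 FPKM and Csn1s2b below 1 FPKM in every tumour.

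Csn3, which encodes kappa-casein, was at 2761, 3037 and 1884 FPKM in tumours 1, 2 and 3 (2561 ± 602, SD, n = 3; mm9 chromosome 5, 88354658 to 88361289). It ranked 11, 12 and 17 among 21699 symbols. Tumour 3 was the lowest and lay outside the deposited intervals of the others.

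The other caseins were present at levels far below it. Csn1s2a, an alpha-S2-like casein gene, was at 32.8, 19.6 and 27.1 FPKM (26.5 ± 6.61; chromosome 5, 88203592 to 88217822). Csn1s1, which encodes alpha-S1-casein, was at 19.1, 12.8 and 15.2 FPKM (15.7 ± 3.22; chromosome 5, 88095249 to 88111599). As deposited, both were highest in tumour 1 and lowest in tumour 2. With GC and length trends removed, tumour 3 was highest, at 35.1 FPKM for Csn1s2a and 19.0 FPKM for Csn1s1, and tumour 2 remained lowest. Csn2, which encodes beta-casein, a leading casein of milk, was at 14.3, 6.24 and 7.19 FPKM (9.25 ± 4.43; chromosome 5, 88121649 to 88128446). Tumour 1 stood apart from the others. The limma adjusted p against 1 FPKM was 2.6e-07 for Csn1s2a, 6.0e-07 for Csn1s1 and 1.0e-05 for Csn2.

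Csn1s2b, the second alpha-S2-like gene, was the exception among the caseins. It was at 0.544, 0.251 and 0.113 FPKM (0.303 ± 0.220; chromosome 5, 88237147 to 88253446), below 1 FPKM with a limma adjusted p of 0.0025. These values rest on 9, 4 and 2 implied fragments, and exact 95% Poisson intervals on those counts run from 0.249 to 1.03, 0.0685 to 0.643 and 0.0137 to 0.407 FPKM. The 3 intervals overlap, and a difference between tumours was not tested for this gene. When each tumour was rescaled to a total of 1000000 FPKM, Csn1s2b was no longer separated from 1 FPKM (adjusted p = 0.44).

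Csn3 exceeded the sum of the 4 other caseins by 41.3-, 78.1- and 38.0-fold in tumours 1, 2 and 3, and made up 97.9% ± 0.701 (SD, n = 3) of the summed casein FPKM. On the log2(FPKM + 0.1) scale it exceeded Csn2 by 8.17 ± 0.68, Csn1s1 by 7.33 ± 0.49 and Csn1s2a by 6.59 ± 0.60 (SD, n = 3), in 3 of 3 tumours each. The ratios of FPKM were 193, 487 and 262 for Csn3 over Csn2. Csn1s2a exceeded its relative Csn1s2b by 6.16 ± 0.73, and Csn2 lay below Csn1s1 by 0.84 ± 0.37, again in 3 of 3 tumours. Of 11 such contrasts between genes, each had the same sign in all tumours as deposited. The exact two-sided sign-flip permutation test gave p = 0.25 for each (adjusted 0.25), the smallest that 3 tumours allow, so no contrast can pass 0.05.

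**Figure D2:**
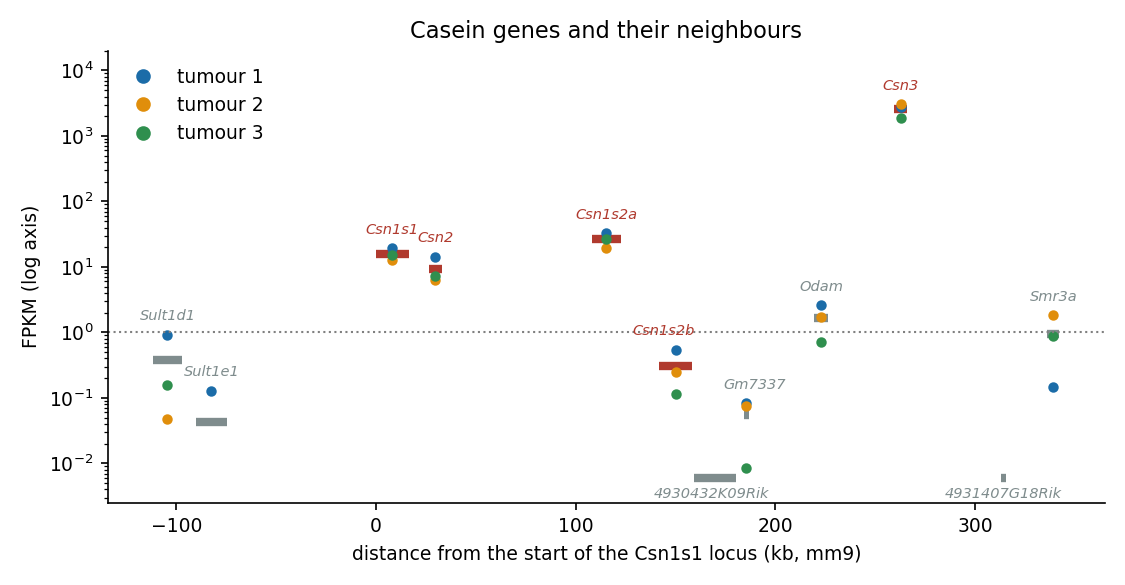
FPKM (log axis) against distance from the start of the Csn1s1 locus (kb, mm9) for all 12 annotated genes of the casein cluster and 100 kb on either side. Horizontal bars span each locus at its mean (caseins red, others grey), dots are tumours above 0, and genes listed at 0 in all tumours sit at the lower edge. Csn3, at 2561 FPKM, begins 259 kb from Csn1s1, with Odam at 1.67 FPKM between it and the other caseins.

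The caseins lie in a cluster of 266 kb on mm9 chromosome 5, with Csn3 at one end. Of the 7 other annotated genes in the cluster and the 100 kb beside it, 2 were listed at 0 and only Odam reached a mean of 1 FPKM. Odam, a secreted protein of enamel-forming and other epithelia, is the last gene before Csn3 and was at 2.60, 1.70 and 0.714 FPKM. On the far side 4931407G18Rik was listed at 0, and Smr3a, a salivary gene, was at 0.148, 1.84 and 0.896 FPKM. At the other end Sult1e1, an oestrogen sulphotransferase gene, was at 0.129 FPKM in tumour 1 and listed at 0 in the others. The high level was thus seen for Csn3 and for no other annotated gene within these bounds.

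Lalba, which encodes the regulatory part of lactose synthase, was at 72.2, 322 and 440.1 FPKM (278 ± 188; chromosome 15, 98310831 to 98313114; limma adjusted p = 2.1e-06 against 1 FPKM), on 1127 implied fragments in tumour 1 and more in the others. Tumour 1 was low and tumours 2 and 3 were high, with deposited intervals that do not overlap. Csn3 exceeded Lalba by 38.2-, 9.45- and 4.28-fold. Lalba made up 1.63%, 5.67% and 11.2% of the members' summed FPKM.

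Expi, a small secreted protein with a WAP-type fold (now Wfdc18), was at 1539.9, 2275 and 1538 FPKM (1785 ± 425; chromosome 11, 83522506 to 83524862). Tumour 2 was the highest, and tumours 1 and 3 had overlapping deposited intervals. Csn3 minus Expi was 0.52 ± 0.29 log2 units (SD, n = 3), positive in 3 of 3 tumours as deposited. After removal of the GC and length trends the difference was 0.52 ± 0.54 and below 0 in tumour 1 (exact sign-flip permutation p = 0.5).

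Wap was at 0.0946, 2.36 and 0.530 FPKM (0.995 ± 1.20; chromosome 11, 6535486 to 6538652; limma adjusted p = 0.34 against 1 FPKM). The values rest on 1, 24 and 6 implied fragments, and the exact 95% Poisson intervals were 0.00240 to 0.527, 1.51 to 3.51 and 0.194 to 1.15 FPKM. Only the interval of tumour 2 was separate from those of the others. Without tumour 2 Wap was called below 1 FPKM (adjusted p = 8.7e-04). Expi exceeded Wap, the milk protein that names its fold, by 11.35 ± 1.55 log2 units, and Lalba exceeded Wap by 8.34 ± 1.22 (SD, n = 3).

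Glycam1, a mucin-like glycoprotein of milk that is also made by high endothelial venules of lymph nodes, was listed at 0 in all 3 tumours (chromosome 15, 103393193 to 103395509). A count of 0 allows 3 fragments, which at its transcript length of 641 bases correspond to 0.249, 0.260 and 0.234 FPKM, from genes of like length. Lymph node and high endothelial venule markers were also near 0, with sums of 0.353, 1.25 and 1.06 FPKM. Of these 10 markers 9 were below 1 FPKM, beside 32.5% of all genes listed above 0, and 1 was left out of the test for its status. The highest of them was Cxcl13 at 0.516 ± 0.319 FPKM.

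**Figure D3:**
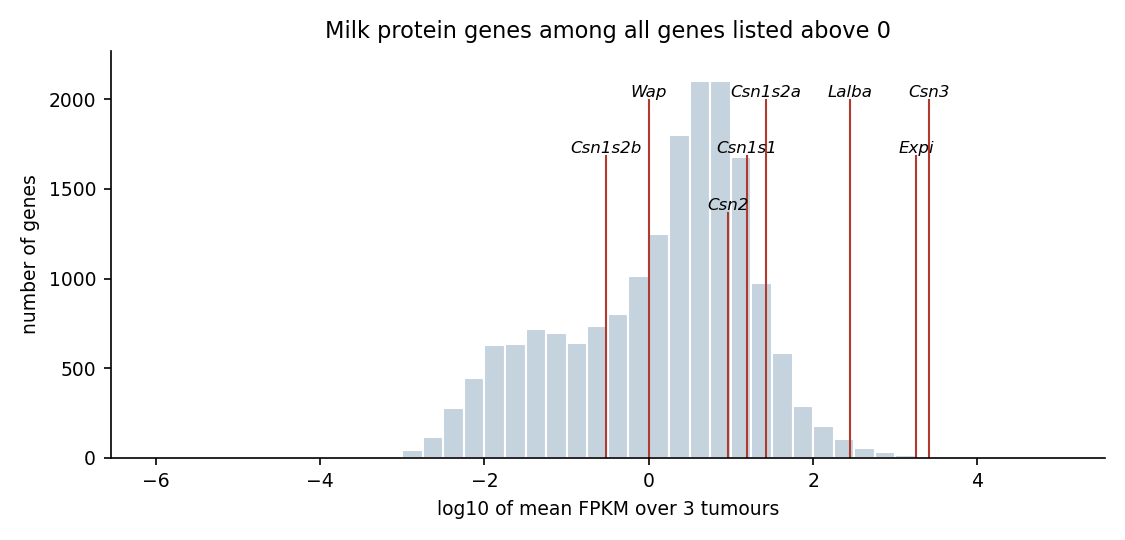
Number of genes by log10 of mean FPKM for the 18028 genes listed above 0 in at least 1 tumour, with the 8 milk protein genes listed above 0 marked by red lines. Csn3 and Expi lie in the far upper tail, and Wap and Csn1s2b below the median gene (2.44 FPKM).

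By mean level the order was Csn3, Expi, Lalba, Csn1s2a, Csn1s1, Csn2, Wap, Csn1s2b and Glycam1. The first 7 followed one another in this order in each of the 3 tumours, with no overlap of deposited intervals between neighbours within a tumour. The ranges over tumours nevertheless overlapped for Csn3 and Expi and for Csn1s1 and Csn2, so for these pairs the order rests on values within a tumour. Wap and Csn1s2b were not ordered: Wap was higher in 2 of 3 tumours, by 0.88 ± 2.34 log2 units, and their intervals overlapped in 2. The median over tumours gave the same order. Without tumour 2 Csn1s2b and Wap changed places.

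Differences between tumours were tested with Cochran's Q on the deposited errors, with a highest-to-lowest ratio of at least 2 required and p-values adjusted over the 11193 genes whose mean reached 1 FPKM. This called 32.1% of the genes tested. The errors hold counting noise only. Of the 6 members tested 2 were called, a share near that background: Lalba with a ratio of 6.09 and Csn2 with a ratio of 2.30. Csn3, Expi, Csn1s2a and Csn1s1 had ratios between 1.48 and 1.67. Without tumour 1 the ratio fell to 1.37 for Lalba and 1.15 for Csn2, and Wap (mean then above 1 FPKM) was the only member called. Without tumour 2 only Lalba was called.

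Tumours differed in how FPKM depended on the GC content and length of transcripts, and the caseins are GC-poor (41.8% for Csn2 and 37.4% for Csn3, against 50.8% for Lalba). With these trends removed Lalba was at 95.1, 293 and 367 FPKM, still lowest in tumour 1 and called, with a ratio of 3.86. Csn2 was then at 10.1, 6.50 and 9.78 FPKM and no longer called (ratio 1.55). Csn3 went the other way, to 1453, 3645 and 2983 FPKM, so that tumour 1 became the lowest and the ratio of 2.51 was called. Expi was then at 1561, 2123 and 1627 FPKM and exceeded Csn3 in tumour 1. With median-of-ratios scaling Csn1s2a was called as well, at a ratio of 2.08. The profile of Lalba was therefore similar under these treatments, while those of the caseins depended on them.

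**Figure D4:**
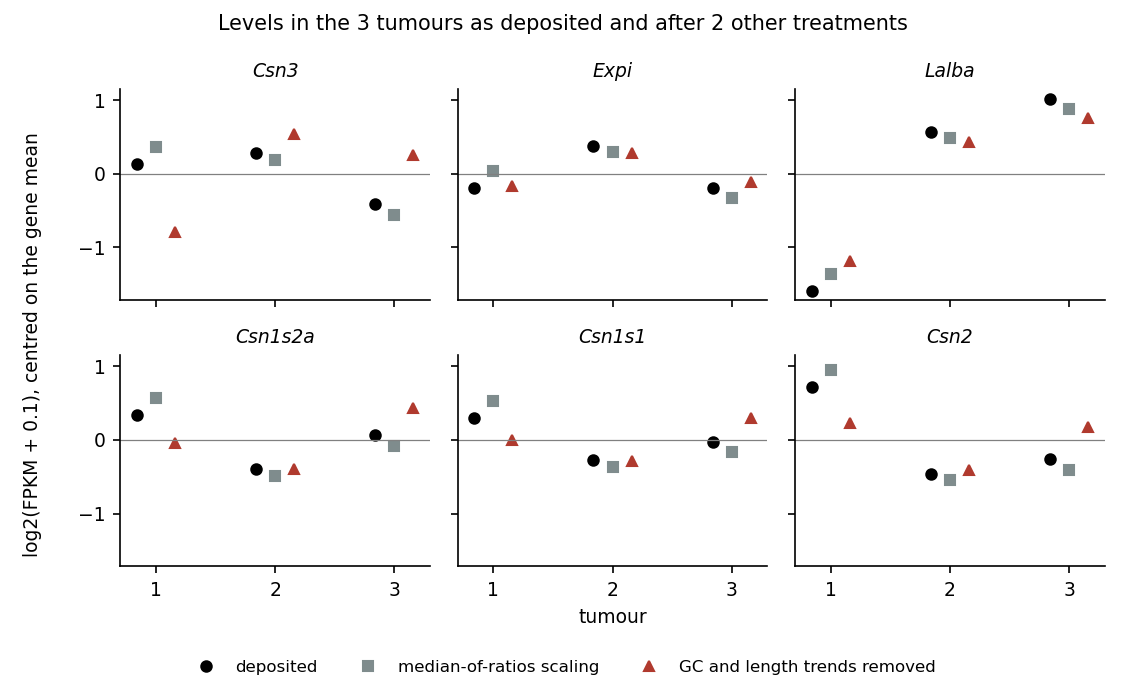
log2(FPKM + 0.1) in each tumour, centred on the gene mean, for the 6 members above 1 FPKM. Circles are deposited values, squares values after median-of-ratios scaling, and triangles values with GC and length trends removed. Lalba is lowest in tumour 1 under all 3, whereas Csn3 in tumour 1 moves from 0.14 as deposited to -0.79 with the trends removed.

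Markers of other cell types also moved between tumours. For comparison, 54.2% of all genes listed above 0 were called above 1 FPKM and 32.5% below. Luminal progenitor and alveolar markers were above 1 FPKM in 6 of 6 cases, with sums of 163, 207 and 168 FPKM, and Elf5 led at 55.3 ± 3.49 FPKM. Hormone-sensing luminal markers had sums of 14.3, 19.0 and 28.0 FPKM with 3 of 6 above. Those were Ly6a (14.0 ± 8.04 FPKM), Esr1 (3.04 ± 0.785 FPKM) and Areg (2.54 ± 0.960 FPKM), while Foxa1 was lowest at 0.0373 ± 0.0286 FPKM. Myoepithelial markers had sums of 27.0, 59.1 and 47.6 FPKM with 3 of 8 above. Those were Acta2 (32.9 ± 12.7 FPKM), Krt14 (2.80, 10.4 and 1.07 FPKM) and Mylk (2.96 ± 0.256 FPKM), while Krt5 was lowest at 0.0690 ± 0.0711 FPKM. Adipocyte markers had sums of 68.2, 48.0 and 211 FPKM with 3 of 8 above and 5 not separated. Most of each sum came from Fabp4 (55.7, 41.6 and 173 FPKM). Skeletal muscle markers had sums of 39.4, 49.9 and 59.2 FPKM with 2 of 6 above. Acta1 (28.4, 37.3 and 44.9 FPKM) and Mb (10.9, 12.6 and 14.3 FPKM) made up nearly all of these sums, while Ckm was at 0.00872 ± 0.0151 FPKM. Salivary gland markers had sums of 461, 613 and 808 FPKM, nearly all from Aqp5 (588 ± 168 FPKM), which other glands express too, with 3 of 5 above and Amy1 below at 0.189 ± 0.0986 FPKM. Except for the adipocyte markers, which were lowest in tumour 2, the sums of all these lists and of the epithelial and lymph node lists were, like Lalba, lowest in tumour 1 as deposited. With GC and length trends removed this held for the myoepithelial, hormone-sensing and lymph node lists. For the hormone-sensing list it rested on Ly6a, its most abundant gene. Esr1, Pgr and Foxa1 were highest in tumour 1, as deposited and with the trends removed. With the trends removed, Ly6a was the only gene of that list lowest in tumour 1. For the myoepithelial list most of each sum with the trends removed came from Acta2 (21.9, 38.3 and 35.1 FPKM). Acta2, Cnn1 and Krt5 were then lowest in tumour 1, while Mylk, Oxtr and Trp63 were highest there. Krt14 was lowest in tumour 3 and Myh11 in tumour 2. The epithelial sums were then 1060.3, 1037 and 844 FPKM and the luminal progenitor sums 180.5, 193 and 158 FPKM, both lowest in tumour 3. The muscle sums were 56.7, 45.5 and 45.1 FPKM and the salivary sums 663, 549.6 and 628 FPKM, both highest in tumour 1. The part of cell composition in the difference of Lalba was not tested. Whether the host's own gland contributed was not tested.

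The profiles most like those of Csn3, Csn2 and Lalba were sought among genes whose mean reached 10 FPKM, by the root mean square difference of centred log2 values over only 3 tumours. Jak1, Paics and Idh3a were nearest to Csn3 (0.00921, 0.0158 and 0.0173 log2 units), but 93 of 3763 genes lay within 0.1. Trps1, Peli1 and Atp13a3 were nearest to Csn2 (0.0263, 0.0363 and 0.0494), with 9 genes within 0.1. Igfbp2, H2-DMa and S100a8 were nearest to Lalba, at 0.176, 0.298 and 0.379, and no gene lay within 0.1. With 3 points such likeness is a description of the values.

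Other milk and fat globule proteins were also abundant in part. Of 15 genes 11 were above 1 FPKM, 1 was below and 3 were not separated. Among all genes listed above 0, 54.2% were above and 32.5% below. The median was 8.63 FPKM, beside 2.44 for all genes listed above 0. The iron-binding transferrin gene Trf, the lipocalin gene Lcn2 and the osteopontin gene Spp1 led at 8699.8 ± 3439, 2528 ± 450.3 and 765 ± 495 FPKM. Spp1 was at 733, 1275 and 287 FPKM, lowest in tumour 3, also with GC and length trends removed (577, 1273 and 365 FPKM). The bile salt-stimulated lipase gene Cel (0.662 ± 0.695 FPKM) and the lactoperoxidase gene Lpo (0.327 ± 0.0871 FPKM) were the lowest.

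Most genes of the hormone pathway that controls milk genes were above 1 FPKM. Of 15, 12 were above and 2 below, beside 54.2% and 32.5% of all genes listed above 0. Their median was 8.85 FPKM. Socs2, a STAT5 target that restrains cytokine signalling, Cebpb and Elf5 led at 71.1 ± 36.9, 68.3 ± 21.5 and 55.3 ± 3.49 FPKM. The progesterone receptor gene Pgr and the RANK ligand gene Tnfsf11 were below, at 0.0918 ± 0.0293 and 0.0657 ± 0.0130 FPKM. Cish was not separated from 1 FPKM, at 0.711, 0.559 and 1.44 FPKM (limma adjusted p = 0.52). Stat5a, chosen after its values were seen, was at 5.09, 11.3 and 11.8 FPKM, lowest in tumour 1. With GC and length trends removed its ratio of highest to lowest went from 2.32 to 1.54. Prlr, the prolactin receptor gene and also chosen afterwards, was at 12.6, 3.74 and 3.28 FPKM, highest in tumour 1. With these trends removed it was at 6.59, 4.57 and 5.12 FPKM, and the ratio went from 3.83 to 1.44. The ratios of Nfib, Nr3c1, Ghr and Stat5b also fell, to between 1.27 and 1.39. Jak2 and Socs2 kept a ratio above 2. Jak2, also chosen afterwards, was at 9.49, 3.12 and 2.06 FPKM. With the trends removed Jak2 was at 7.37, 3.11 and 2.67 FPKM (ratio 2.76). Socs2 was at 107, 73.0 and 33.3 FPKM, and at 113, 68.4 and 33.5 FPKM with the trends removed (ratio 3.39).

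Of 8 genes of lactose synthesis and casein phosphorylation 7 were called above 1 FPKM, beside 54.2% of all genes listed above 0. The list's median was 15.99 FPKM. B4galt1, the galactosyltransferase that alpha-lactalbumin modifies, was at 23.9, 39.6 and 42.0 FPKM (35.2 ± 9.78), and the glucose transporter gene Slc2a1 at 14.6, 31.5 and 25.3 FPKM (23.8 ± 8.56). Both were lowest in tumour 1. With GC and length trends removed B4galt1 was at 28.3, 36.9 and 38.1 FPKM and Slc2a1 at 19.4, 28.8 and 20.8 FPKM. Ugp2 was the only one of these 8 genes not lowest in tumour 1 as deposited. It was at 20.8, 12.1 and 5.94 FPKM, and at 11.8, 13.8 and 9.22 FPKM with the trends removed. Fam20c encodes the Golgi kinase that phosphorylates caseins, and Fam20a its activating partner. Fam20a was at 39.4 ± 5.99 FPKM, the highest of the list, while Fam20c was not separated from 1 FPKM at 0.498, 0.971 and 2.13 FPKM. Slc35a2, which encodes a UDP-galactose transporter of the Golgi, was at 5.73 ± 1.41 FPKM.

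**Figure D5:**
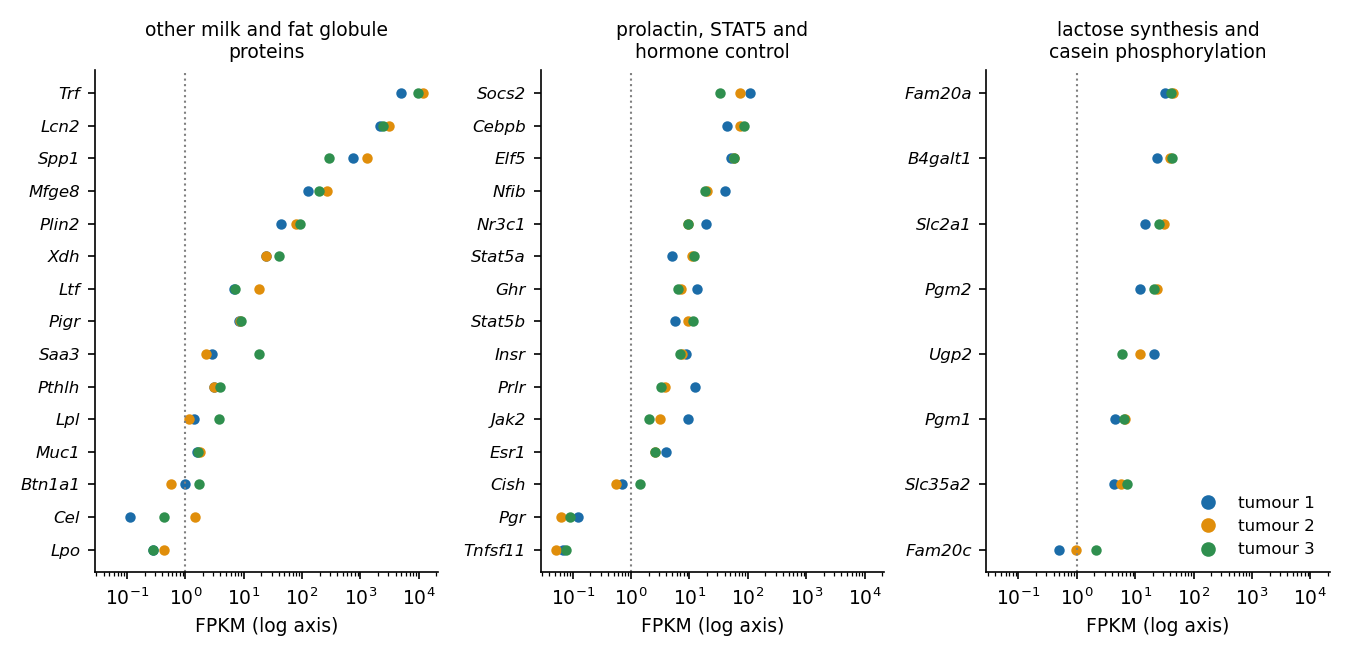
FPKM (log axis) per tumour for other milk and fat globule proteins, for prolactin, STAT5 and hormone control, and for lactose synthesis and casein phosphorylation, with a dotted line at 1 FPKM. Trf is at 4915 FPKM or more in each tumour, while Fam20c lies on both sides of 1 FPKM.

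Protein families of the whey members were unevenly expressed. In the WAP four-disulfide family, 11 of 12 symbols were in the tables. Of these, 6 were above 1 FPKM, 2 below, 2 not separated and Wfdc15a listed at 0. Among all genes listed above 0, 54.2% were above and 32.5% below. Wfdc2 and Wfdc3 followed Expi at 21.4 ± 10.5 and 14.1 ± 4.48 FPKM, and Wfdc1 was at 0.0219 ± 0.0379 FPKM. Wfdc17 was present under its older symbol Gm11428, at 10.2, 8.49 and 19.8 FPKM, and its locus starts at -4.95 kb from that of Expi. On the other side of Expi lay 1100001G20Rik, now Wfdc21, at 2.75, 1.05 and 2.97 FPKM. Among these 3 neighbouring WAP-type genes only Expi was abundant.

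Alpha-lactalbumin descends from lysozyme. Of 7 lysozyme family genes Lyz2, Lalba and Lyz1 were above 1 FPKM, Lyzl4 was not separated and Lyzl1, Lyzl6 and Spaca3 were listed at 0. The share of all genes listed above 0 that was called above 1 FPKM was 54.2%. Lyz2, the lysozyme of macrophages, was at 146, 230.3 and 602 FPKM and Lyz1 at 7.13, 10.2 and 32.0 FPKM. Lyz1 and Lyz2 are close copies whose fragments may be split between them. Lalba exceeded Lyz1 by 4.02 ± 0.85 log2 units (SD, n = 3) in 3 of 3 tumours.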

How the data were processed

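RNA was depleted of ribosomal RNA and made into directional libraries from 50 ng with random priming, per the labels' protocols. Each deposited table lists FPKM by gene, its interval bounds and a status, per the file headers. TopHat, Cufflinks and the build mm9 are named in the submitters' processing notes; for versions, annotation and use of strand nothing is given in the sources used here, and overlapping genes and close copies are uncertain. FPKM is a share: abundant transcripts lower all others.

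Rows of 221 repeated symbols were summed, and 182 symbols without an OK status in all tumours were left out of tests. FPKM totals were 318509, 375968 and 364195. The distance from a value to its interval's upper bound was taken as 2 standard errors. Fragments were implied from FPKM divided by its error, squared. Below 60 fragments, 71.2%, 72.1% and 70.3% of symbols came out whole (tolerance 0.02), and no count test was run. Intervals cover counting error only.

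Levels were tested with limma 3.58.1 (R 4.3.3; log2 of FPKM plus 0.1, trend, robust moderation), and tumours with Cochran's Q (2 degrees of freedom; a tumour at 0 took the gene's largest error). The limma p-values measure the spread between 3 tumours of 1 line. Those of Cochran's Q set tumour differences against counting error only. GC content and length came from GENCODE vM21 by name (98.2% of symbols, all 9 members), with lowess trends of span 0.3 over 10845 genes; removal keeps each gene's mean on the log scale apart from the pseudocount. Further numbers in the sample titles are unexplained, and the part of lanes or batches was not tested.

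Members and lists were chosen with earlier results of these data known. 1 gene of a list is not reported here and is not in that list's count or median. Named genes were the members, the 3 highest and 2 lowest of each list other than the marker lists, neighbours within 100 kb and nearest profiles. Cxcl13, Krt5, Krt14, Acta2, Mylk, Cnn1, Oxtr, Trp63, Myh11, Ly6a, Esr1, Areg and Foxa1 include genes chosen after their values were seen. The same holds for Fabp4, Ckm, Acta1, Mb, Amy1, Aqp5, Gm11428, 1100001G20Rik, Stat5a, Stat5b and Prlr, and for Jak2, Nfib, Nr3c1, Ghr, Cish and Ugp2. Alternatives were other pseudocounts, scalings, filters, ratios, omission of each tumour and removal of the trends.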

Additional observations from a re-analysis of the deposited data

How the results depend on the processing

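The 6 calls of milk protein genes above 1 FPKM and the sign of the mean of the 11 contrasts held under each alternative run for them. Removal of the trends nearly keeps contrast means by construction, but not values within a tumour: Csn3 minus Expi turned negative in tumour 1 and the SD of Csn3 minus Lalba went from 1.60 to 0.46. Rescaling to totals of 1000000 FPKM shifted the level of the median gene upward by 1.47 (log2) and put 73.4% of calls above rather than 62.5%, with 0 milk protein genes below 1 FPKM in place of 1 (limma; also 0 at an unadjusted p under 0.05). Leaving out 1 tumour gave 1 to 2 members below. With genes under 0.1 FPKM left out, 2228 genes were below in place of 5864, because fewer were tested. Genes that differed between tumours numbered 3594, and 1724 with GC and length trends removed, 7588 at a ratio of 1.5, 1819 above 5 FPKM, and 633 (without tumour 1) to 3282 with 1 tumour left out. Members that differed numbered 2, and 5 at a ratio of 1.5 and 1 to 3 with 1 tumour left out. The members' share of FPKM was 1.33%, and 1.97% without loci under 300 bp. Beyond what construction sets, the cause of these changes was not tested. Levels of Wap, Csn1s2b and Glycam1 are limited by their few fragments. Samples could not be paired with one another because there is 1 group and the titles carry no plain replicate number. Contrasts between genes were taken within each tumour.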

Other observations

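Neighbours of the other milk protein genes on mm9 showed no common level. Within 100 kb of Lalba, the cyclin gene Ccnt1 was at 12.8 ± 1.52 FPKM and 2310037I24Rik at 14.0 ± 4.08 FPKM (SD, n = 3), while the olfactory receptor genes Olfr281 and Olfr279 on either side of Lalba were listed at 0 and at 0.0945 ± 0.0857 FPKM. The short loci Snora34 and Snora2b inside this window were at 143 ± 92.2 and 42.7 ± 19.7 FPKM. Near Wap, Ccm2 was at 10.6 ± 3.76 FPKM, Tbrg4 at 3.23 ± 0.847 FPKM and the small RNA Snora5c at 0, 15.7 and 28.2 FPKM, with Gm11978 on the other side at 0.0149 ± 0.0189 FPKM. Near Glycam1, Nckap1l, a gene of blood cells, was at 6.05 ± 2.30 FPKM and the adjacent Ppp1r1a at 0.00967 ± 0.0168 FPKM. Near Expi, Heatr6 was at 3.98 ± 0.586 FPKM and the chemokine gene Ccl4 at 0.297, 0.0772 and 3.26 FPKM.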
